A study of Mus musculus with 6 samples.

Results

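The genes described here supply cells with ATP outside the mitochondria. They comprise the enzymes of glycolysis, glucose and lactate transporters, glycogen enzymes, the kinases that set fructose 2,6-bisphosphate, the pyruvate dehydrogenase (PDH) kinases, and the creatine, adenylate and AMP enzymes of the phosphocreatine system. Members were taken by gene symbol from a list of 45 genes, of which 43 have a row among the 18943 genes of the table. They give 44 rows, because Aldoa is listed under 2 identifiers, and Phkg1 and Fbp2 were not analysed here. Each row was assigned from general knowledge to 1 of 3 classes. There were 9 rows for isoforms that define skeletal muscle, 9 rows for genes rich in muscle but also used elsewhere, and 26 rows for ubiquitous isoforms or isoforms known from other tissues.

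RNA-seq was performed on muscle stem cells (MuSCs), the resident stem cells of skeletal muscle, which were sorted by FACS from wild-type C57BL/6 mice aged 8 weeks and cultured for 5 days. The cultures received DMSO, the solvent control, or endothelin-3 (ET-3) or neurotensin (NT), peptide ligands of G protein-coupled receptors, each at 100 nM by the sample labels, while the study's methods give higher doses. Each group had 2 libraries, and since the labels do not say whether these came from separate mice or cultures, p-values measure only the spread between these libraries, which may be technical. Both ligands were compared with the same DMSO libraries, to ask how energy genes differ after culture with each ligand.

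Skeletal muscle carries its own isoforms for many steps of energy supply. Differentiating muscle cells turn on muscle phosphofructokinase, phosphoglycerate mutase, enolase, glycogen phosphorylase and creatine kinase, whereas the same reactions are run in most other cells by ubiquitous isoforms. Phosphocreatine and glycogen are the rapid energy stores of the contracting fiber, and Slc2a4 encodes GLUT4, the insulin-responsive glucose transporter of muscle and fat.

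The table holds read counts that were multiplied by 1 factor per library, called values below, and these summed to between 4214458 and 4600575 per library, from an estimated 3628950 to 5396230 reads on genes. At a value of 100, counting error alone is 8.84% to 10.9% in a single library. The 8 MuSC markers, among them Pax7 and Myod1, were detected in every library, with summed values of 9545 to 10465 (DMSO), 9224 to 9506 (ET-3) and 7945 to 8293 (NT). Within these sums Cdh15 fell under both ligands (1547 and 1746, 483 and 462, and 496 and 436), while Pax7 was higher in treated libraries (857 and 1070, 1754 and 1730, and 1653 and 1599) at the adjusted p but below 2-fold. All 8 markers of differentiated muscle were lower under both ligands by the thresholds given below, against 14.9% (ET-3) and 13.2% (NT) of all tested genes. Among them Myh8, Actc1 and Tnnc2 passed the filter on low values only through their DMSO values, so this count is a description. The summed values of the 8 markers were 13655 to 15292 (DMSO), 401 to 442 (ET-3) and 307 to 408 (NT). Their part in the results below was not tested, and in bulk RNA fewer cells of a type cannot be told apart from less RNA per cell.

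The promoters of muscle isoforms that fell together are shown first, with that of Eno3, a muscle isoform that was not differentially expressed, for comparison. The sequences are RefSeq windows of 300 bases (GRCm38.p6), from 250 bases before the annotated start to 50 after it, written in the direction of the gene, 5′ to 3′. Capitals mark the E boxes CAGCTG and CAGGTG, the kind of site that MyoD and myogenin recognize, and the MEF2 motif, each searched on both strands. The windows lie at chr7:19410844-19411143 (+ strand) for Ckm, chr19:6384158-6384457 (+) for Pygm, chr11:5803747-5804046 (−) for Pgam2, chr13:91876836-91877135 (−) for Ckmt2 and chr11:70656926-70657225 (+) for Eno3.
Ckm: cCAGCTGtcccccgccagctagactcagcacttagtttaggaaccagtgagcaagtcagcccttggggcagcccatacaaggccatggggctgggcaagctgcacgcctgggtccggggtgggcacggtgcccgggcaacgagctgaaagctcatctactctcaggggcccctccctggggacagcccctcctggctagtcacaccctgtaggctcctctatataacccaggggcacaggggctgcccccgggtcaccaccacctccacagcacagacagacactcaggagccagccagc
Pygm: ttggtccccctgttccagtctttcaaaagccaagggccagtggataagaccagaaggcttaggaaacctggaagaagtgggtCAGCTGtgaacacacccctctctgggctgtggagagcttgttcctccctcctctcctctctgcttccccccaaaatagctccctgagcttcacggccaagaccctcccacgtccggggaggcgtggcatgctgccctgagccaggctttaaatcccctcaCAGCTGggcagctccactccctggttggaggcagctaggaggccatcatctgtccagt
Pgam2: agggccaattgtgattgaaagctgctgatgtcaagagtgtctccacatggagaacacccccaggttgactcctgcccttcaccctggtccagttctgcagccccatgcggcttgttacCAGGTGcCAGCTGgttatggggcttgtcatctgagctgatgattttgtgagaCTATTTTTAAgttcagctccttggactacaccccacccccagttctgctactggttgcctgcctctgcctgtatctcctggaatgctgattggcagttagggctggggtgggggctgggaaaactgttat
Ckmt2: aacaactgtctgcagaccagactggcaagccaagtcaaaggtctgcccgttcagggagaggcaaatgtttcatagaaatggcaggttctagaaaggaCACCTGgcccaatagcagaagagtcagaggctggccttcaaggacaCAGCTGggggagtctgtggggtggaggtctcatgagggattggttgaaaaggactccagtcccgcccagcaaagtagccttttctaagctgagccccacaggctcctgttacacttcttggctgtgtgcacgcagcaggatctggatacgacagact
Eno3: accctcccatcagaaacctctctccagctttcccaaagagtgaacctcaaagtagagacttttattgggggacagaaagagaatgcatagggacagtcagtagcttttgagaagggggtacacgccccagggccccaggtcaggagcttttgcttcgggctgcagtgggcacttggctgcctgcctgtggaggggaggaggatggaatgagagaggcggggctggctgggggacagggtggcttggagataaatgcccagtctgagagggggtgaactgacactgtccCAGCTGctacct
All 5 windows hold CAGCTG, and Pygm holds it 2 times. Pgam2 is the 1 window of the 5 with a MEF2 match, which lies 80 bases before the start, and its E boxes lie 125 and 132 bases before it. Over all 27025 symbols with a window, 18.3% hold CAGCTG in at least 1 window. The motif was found in 6 of the 7 muscle-isoform symbols with a window, in 4 of 8 muscle-rich symbols and in 5 of 26 other members, and symbols differ in their number of windows. The 6 symbols include Eno3 and Phka1, neither of which was differentially expressed, and Pfkm lacks the motif. The other E box, CAGGTG, was found in 3 of the 7 and in 22.6% of all symbols. A match is a description of the letters and no evidence of binding.

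A gene was called differentially expressed (DEG) when it changed at least 2-fold and had an adjusted p of 0.05 or less in limma, with Benjamini-Hochberg adjustment over all 13921 tested genes. Of the 44 rows, 42 had a mean value of at least 5 and were tested. With ET-3, 17 of the 42 were downregulated (40.5%), against 14.9% of all tested genes, and 1 was upregulated, against 6.62% of all. With NT, 16 were downregulated (38.1%), against 13.2% of all tested genes, and 2 were upregulated, against 7.30%. The 16 genes lower with NT were all lower with ET-3 too, and the comparisons share the DMSO libraries. At the adjusted p alone, 7 members were higher and 23 lower with ET-3, against 30.6% and 33.2% of all tested genes, and 3 were higher and 28 lower with NT, against 29.7% and 32.5%. Ckm, Ckmt2, Ampd1 and Aldoc passed the filter on low values only through their DMSO values and therefore had to differ, so these shares are a description.

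The 3 classes differed in their counts of DEGs. Of 9 muscle-isoform rows, 7 fell under both ligands, namely Pfkm, Pgam2, Slc2a4, Pygm, Ckm, Ckmt2 and Ampd1. Of 9 muscle-rich rows, 3 fell under both (33.3%). Of 24 tested rows of the third class, 7 fell with ET-3 (29.2%) and 6 with NT (25%). Among all tested genes 14.9% fell with ET-3 and 13.2% with NT. Since Ckm, Ckmt2 and Ampd1 of the muscle isoforms and Aldoc of the third class had to differ, as given above, these counts are descriptions. The median log2 fold change of the muscle isoforms was −4.98 with ET-3 and −4.48 with NT. Both medians are those of Ckmt2, with values of 0 and 0 (ET-3) and 1 and 0 (NT), so the NT median rests on 1 read. With Ckm and Ckmt2, at 0 in both ET-3 libraries, set at their bounds the ET-3 median was −4.13. The muscle-rich rows had medians of −0.11 and −0.36 and the third class −0.19 and −0.32, beside −0.01 over all tested genes under either ligand.

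**Figure D1:**
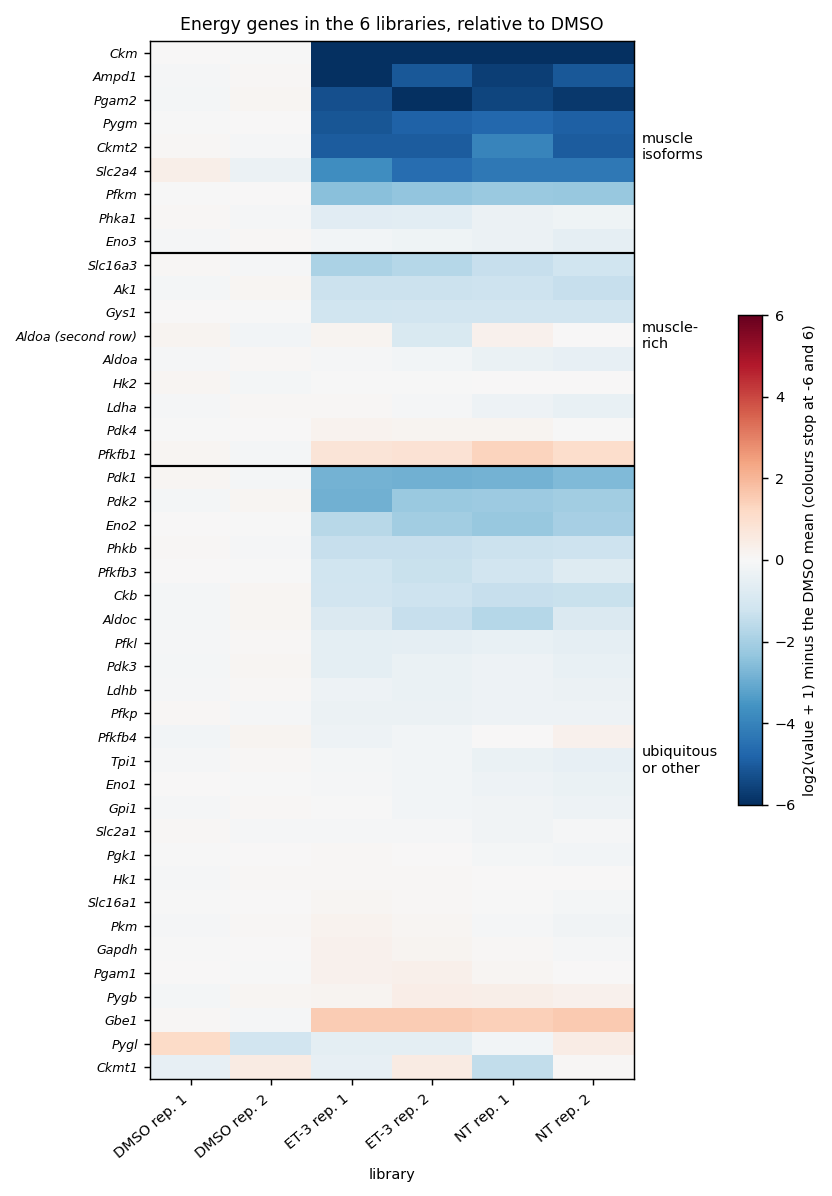
Heat map of log2(value + 1) minus the DMSO mean for the 44 rows (vertical, by class and ordered by the ET-3 change) in the 6 libraries (horizontal), with blue below and red above DMSO. The 4 treated libraries are alike, 7 muscle isoforms are deep blue in each of them, Gbe1 is red, and most ubiquitous isoforms are near white.

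All 5 tested phosphocreatine and adenylate members fell under both ligands, against 14.9% (ET-3) and 13.2% (NT) of all tested genes. Of these, Ckm, Ckmt2 and Ampd1 passed the filter on low values only through their DMSO values, so this count is a description. Ckm encodes muscle creatine kinase, which transfers phosphate between ATP and creatine. Its values were 545 and 520 (DMSO), 0 and 0 (ET-3) and 0 and 1 (NT). The groups were thus separated by the whole range of the gene, and an antisense gene, A930016O22Rik, covers 15.5% of its exonic bases. With a floor of 3 reads per library, Ckm was at least 155-fold lower with ET-3, and with NT it was 1307-fold lower with a 95% counting interval of 234 to 51668 on 1 read.

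Ckmt2, the sarcomeric mitochondrial creatine kinase, had values of 32 and 29 (DMSO), 0 and 0 (ET-3) and 1 and 0 (NT). It was at least 8.90-fold lower with ET-3 and 75.2-fold lower with NT (13.0 to 3021). Intervals and floors cover counting error only. Ampd1, the AMP deaminase of muscle, stood at 95 and 104 (DMSO), 0 and 2 (ET-3) and 1 and 2 (NT). For both genes the DMSO libraries lay far above all 4 treated libraries. On 2 reads in the ET-3 libraries, Ampd1 was 87.3-fold lower (23.8 to 726).

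The brain-type creatine kinase and the cytosolic adenylate kinase fell to a smaller extent. Ckb, the brain-type cytosolic creatine kinase, had values of 696 and 803 (DMSO), 337 and 320 (ET-3) and 288 and 298 (NT). It fell, with a log2 fold change of −1.18 ± 0.07 (SE) with ET-3 (limma, adjusted p = 3.85e-07) and −1.35 ± 0.07 with NT (adjusted p = 1.65e-07). Ak1, the cytosolic adenylate kinase abundant in muscle, fell from 874 and 1003 to 380 in both ET-3 libraries and to 397 and 362 with NT, a change of −1.30 on the log2 scale under each ligand (adjusted p = 1.95e-07 and 2.08e-07). In both genes no treated library reached the lowest DMSO library. Ckmt1, the ubiquitous mitochondrial creatine kinase, was listed at 1 and 3, 1 and 3, and 0 and 2 and was not tested.

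Among the glycogen genes, 3 of 6 tested members fell and 1 rose under both ligands. Pygm, the muscle glycogen phosphorylase that releases glucose 1-phosphate, had values of 966 and 1030 (DMSO), 27 and 34 (ET-3) and 37 and 33 (NT). It fell, with a log2 fold change of −5.00 ± 0.14 with ET-3 (adjusted p = 2.75e-09) and −4.80 ± 0.14 with NT (adjusted p = 4.08e-09). Every treated library was below every DMSO library by more than an order of magnitude. Pygb, the brain isoform, had 267 and 319 (DMSO), 324 and 385 (ET-3) and 370 and 348 (NT), with log2 fold changes of 0.27 and 0.30 that passed the adjusted p (0.035 and 0.026) but not the 2-fold threshold. Pygl, the liver isoform, was listed at 9 and 1, 2 and 2, and 3 and 5 and was not tested.

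Gbe1, the branching enzyme that introduces the side chains of glycogen, was the only member to rise under both ligands. Its values were 183 and 162 (DMSO), 503 and 492 (ET-3) and 468 and 509 (NT), with no overlap between DMSO and treated libraries. It rose by 1.53 ± 0.07 on the log2 scale with ET-3 (adjusted p = 7.52e-08) and by 1.50 ± 0.07 with NT (adjusted p = 9.36e-08). Gys1, the glycogen synthase of muscle and most other tissues, instead fell from 1328 and 1321 (DMSO) to 583 and 605 (ET-3) and 592 and 598 (NT). The log2 fold changes of Gys1 were −1.16 and −1.15 with standard errors of 0.04, and no treated library came near the DMSO level. The synthase and the branching enzyme, which act in sequence on the growing chain, therefore changed in opposite directions.

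The subunits of phosphorylase kinase, which activates glycogen phosphorylase, differed among themselves. Phkb, the regulatory beta subunit, had values of 548 and 503 (DMSO), 198 and 199 (ET-3) and 216 and 221 (NT), and fell, with log2 fold changes of −1.40 ± 0.07 and −1.26 ± 0.07 (adjusted p = 7.45e-08 and 1.64e-07). Phka1, the muscle alpha subunit, had 405 and 366 (DMSO), 241 and 244 (ET-3) and 297 and 319 (NT). Its log2 fold changes of −0.66 and −0.32 passed the adjusted p (2.04e-05 and 0.0028) but stayed below 2-fold, although the groups did not overlap.

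In glycolysis 4 of 20 rows (20%) were downregulated under both ligands, Pfkm, Pgam2, Eno2 and Aldoc. Of all tested genes 14.9% were downregulated with ET-3 and 13.2% with NT. Pfkm, the muscle subunit of phosphofructokinase, which commits sugar to glycolysis, had values of 931 and 979 (DMSO), 168 and 182 (ET-3) and 203 and 197 (NT). It fell, with a log2 fold change of −2.44 ± 0.07 with ET-3 (adjusted p = 2.53e-09) and −2.25 ± 0.07 with NT (adjusted p = 4.06e-09). Gm26513 and Senp1 overlap it, over 10.2% of its exonic bases on the same strand and 0.539% on the other. The liver subunit gene Pfkl had values of 685 and 755, 477 and 498, and 532 and 496, and Pfkp, the platelet subunit, 1084 and 1009, 829 and 832, and 860 and 840. Both lay lower in all 4 treated libraries than in DMSO, by less than 2-fold, with log2 fold changes of −0.56 and −0.48 for Pfkl and −0.33 and −0.30 for Pfkp (adjusted p at most 0.00038).

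Pgam2, the muscle phosphoglycerate mutase of lower glycolysis, had values of 466 and 540 (DMSO), 12 and 7 (ET-3) and 10 and 8 (NT). It fell, with a log2 fold change of −5.62 ± 0.27 with ET-3 (adjusted p = 6.86e-08) and −5.66 ± 0.27 with NT (adjusted p = 7.32e-08). The ubiquitous Pgam1 had 112 and 108 (DMSO), 130 and 135 (ET-3) and 118 and 112 (NT), log2 fold changes of 0.27 (adjusted p = 0.048) and 0.06. Both ET-3 libraries thus lay above DMSO in Pgam1, while the NT libraries overlapped DMSO, and neither change reached 2-fold.

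Eno3, the muscle enolase, was with Phka1 one of the muscle isoforms that did not reach 2-fold. Its values were 1051 and 1166 (DMSO), 978 and 931 (ET-3) and 854 and 769 (NT), a log2 fold change of −0.21 ± 0.07 with ET-3 (adjusted p = 0.016) and −0.45 ± 0.07 with NT (adjusted p = 0.00019). The groups did not overlap, but neither change reached 2-fold. Eno3 had 0.600 reads per exonic base with DMSO, rank 20 among the 13835 tested genes of at least 300 exonic bases. The highest density was 0.890, in Acta1. The bearing of density on the change of Eno3 was not tested. The ubiquitous Eno1 had 865 and 811, 794 and 736, and 684 and 642, with log2 fold changes of −0.13 and −0.34. Eno2, the neuronal enolase, fell from 77 and 74 (DMSO) to 23 and 17 (ET-3) and 15 and 18 (NT), with log2 fold changes of −1.88 ± 0.25 and −2.13 ± 0.25 (adjusted p = 8.37e-05 and 3.62e-05).

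The aldolases were measured by 3 rows. Aldoa, the aldolase of muscle and most other cells, had values of 1334 and 1477 (DMSO), 1339 and 1259 (ET-3) and 1056 and 993 (NT), with log2 fold changes of −0.11 (adjusted p = 0.12) and −0.45 (adjusted p = 8.54e-05). The second Aldoa row, an adjacent gene model, had values between 8 and 19 in all libraries. Aldoc, the brain aldolase, had 11 and 13 (DMSO), 6 and 4 (ET-3) and 3 and 6 (NT). It was downregulated, with log2 fold changes of −1.13 ± 0.42 and −1.29 ± 0.42 (adjusted p = 0.039 and 0.022). This call rests on few reads. For ET-3 it was lost with the first or the second DMSO library left out (log2 fold change −1.24, adjusted p = 0.087, and −1.02, adjusted p = 0.13) or with either ET-3 library left out (−1.37, adjusted p = 0.052, and −0.89, adjusted p = 0.15). For NT it was lost without the first or second DMSO library (−1.40, adjusted p = 0.065, and −1.18, adjusted p = 0.10) and without the first NT library (−0.89, adjusted p = 0.14).

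The remaining glycolytic genes did not reach 2-fold under either ligand. The hexokinases, which trap glucose in the cell, showed no difference beyond the spread: Hk2 had values of 923 and 775 (DMSO), 821 and 835 (ET-3) and 859 and 870 (NT), and Hk1 stayed between 938 and 1059. Neither passed the adjusted p. Gapdh had 451 and 461 (DMSO), 543 and 516 (ET-3) and 477 and 440 (NT), log2 fold changes of 0.21 (adjusted p = 0.0085) and 0.01. Pkm, pyruvate kinase, had the highest values of all members, 1496 and 1668 (DMSO), 1834 and 1724 (ET-3) and 1489 and 1350 (NT). It was thus somewhat higher than DMSO with ET-3 and not with NT, with log2 fold changes of 0.17 (adjusted p = 0.041) and −0.16 (adjusted p = 0.059), and Gm49759 shares 15.3% of its exonic bases on the same strand.

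Gpi1, the isomerase after hexokinase, had values from 1197 to 1374 with DMSO and ET-3 and of 1143 and 1085 with NT. Tpi1, triosephosphate isomerase, had 766 and 851 (DMSO), 747 and 717 (ET-3) and 604 and 571 (NT). Both were lowest in the NT libraries, with NT log2 fold changes of −0.25 (adjusted p = 0.0038) and −0.46 (adjusted p = 8.85e-05). Pgk1 stayed between 248 and 295. Ldha, the lactate dehydrogenase subunit favored in glycolytic tissue, had 1056 and 1158 (DMSO), 1155 and 1052 (ET-3) and 894 and 825 (NT), and Ldhb, the heart subunit, 121 and 133, 102 and 95, and 101 and 100. Several of these genes have near-identical processed pseudogenes in the mouse genome, and since reads that aligned to several regions were left out, the levels of Gapdh, Pgk1, Pgam1, Eno1, Ldha and Tpi1 are uncertain.

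Of the 4 transporters, Slc2a4 and Slc16a3 fell and the ubiquitous transporters did not pass the adjusted p. Slc2a4 had values of 148 and 92 (DMSO), 8 and 4 (ET-3) and 5 and 5 (NT), and fell, with log2 fold changes of −4.13 ± 0.37 and −4.29 ± 0.37 (adjusted p = 5.77e-06 and 4.74e-06). Slc2a1, which encodes the ubiquitous GLUT1, had 579 and 539, 531 and 526, and 487 and 524. The 2 DMSO libraries differed from each other in Slc2a4 but lay far above all treated ones. Slc16a3, which encodes the lactate exporter MCT4 of glycolytic fibers, fell from 394 and 348 (DMSO) to 99 and 111 (ET-3) and 141 and 162 (NT), with log2 fold changes of −1.81 ± 0.11 and −1.29 ± 0.11 (adjusted p = 2.88e-07 and 3.32e-06). Slc16a1, which encodes MCT1, stayed between 884 and 1053.

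The bifunctional enzymes that make and break fructose 2,6-bisphosphate, an activator of phosphofructokinase, went different ways. Pfkfb3, the inducible isoform with high kinase activity, had values of 279 and 266 (DMSO), 120 and 109 (ET-3) and 121 and 160 (NT). It fell, with a log2 fold change of −1.24 ± 0.13 with ET-3 (adjusted p = 1.56e-05). With NT the log2 fold change was −0.96 (adjusted p = 9.99e-05), just short of 2-fold. Over the alternatives it ranged from −1.16, without the second NT library, to −0.76. Pfkfb1, the isoform of liver and muscle, had 30 and 26 (DMSO), 48 and 51 (ET-3) and 72 and 60 (NT). It rose with NT, by 1.21 ± 0.20 on the log2 scale (adjusted p = 0.00039), and reached 0.80 with ET-3 (adjusted p = 0.0047), below 2-fold. The difference between the ligands, 0.40, did not pass (adjusted p = 0.29). Pfkfb4 had 76 and 95, 68 and 76, and 86 and 102, without a difference beyond the spread.

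The PDH kinases, which phosphorylate and switch off pyruvate dehydrogenase and so hold pyruvate back from the mitochondria, did not move as 1 group. Pdk1 had values of 447 and 391 (DMSO), 57 and 56 (ET-3) and 57 and 65 (NT), and fell, with log2 fold changes of −2.87 ± 0.12 and −2.76 ± 0.12 (adjusted p = 3.32e-08 and 4.71e-08). Pdk2 had 147 and 173, 21 and 33, and 34 and 37, and fell, with log2 fold changes of −2.55 ± 0.23 and −2.14 ± 0.23 (adjusted p = 5.18e-06 and 1.96e-05). In both genes every treated library lay far below the DMSO libraries. Pdk3 had 235 and 276, 172 and 196, and 203 and 184, log2 fold changes of −0.47 and −0.40 below 2-fold. Pdk4, rich in muscle and induced by fasting, had 955 and 973 (DMSO), 1126 and 1083 (ET-3) and 1072 and 947 (NT), log2 fold changes of 0.20 (adjusted p = 0.015) and 0.06 (adjusted p = 0.37).

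Pdk1 is a known target of the hypoxia-inducible factors, whose core site is ACGTG or GCGTG, and it was the ubiquitous member with the largest decrease. The first of its 2 RefSeq promoter windows, chr2:71872974-71873273 (+), is shown with GCGTG in capitals.
Pdk1: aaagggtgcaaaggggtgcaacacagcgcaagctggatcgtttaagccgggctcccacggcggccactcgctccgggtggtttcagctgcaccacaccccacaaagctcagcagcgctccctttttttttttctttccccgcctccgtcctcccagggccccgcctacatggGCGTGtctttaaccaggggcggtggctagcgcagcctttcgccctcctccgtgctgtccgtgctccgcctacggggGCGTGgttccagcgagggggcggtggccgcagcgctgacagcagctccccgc
GCGTG occurs 2 times in this window, 78 and 2 bases before the start, and ACGTG does not occur in it. At least 1 window with GCGTG was found for 35.2% of all symbols and for 17 of the 26 members of the ubiquitous class, so the match does not set Pdk1 apart.

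**Figure D2:**
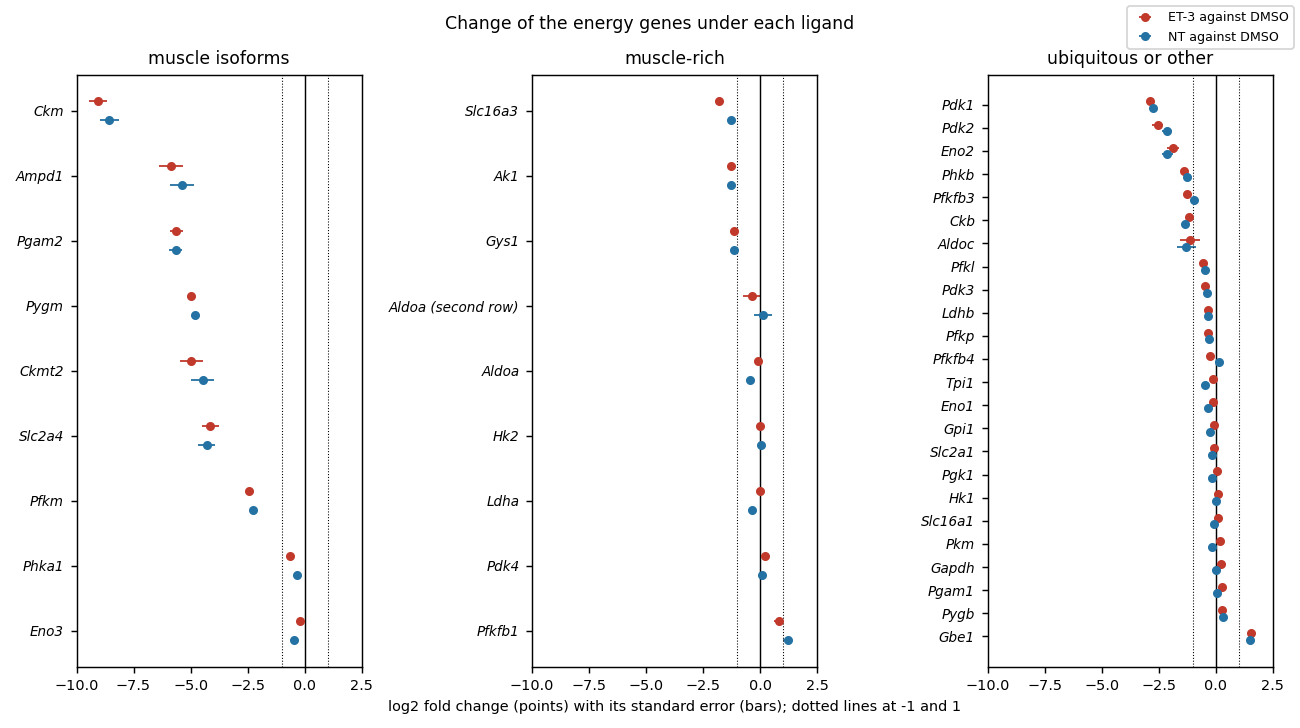
Log2 fold changes (horizontal, points) with their standard errors (bars) of the 42 tested rows (vertical) for ET-3 in red and NT in blue, 1 panel per class, with dotted lines at the 2-fold threshold. Of the muscle isoforms 7 of 9 lie left of the line at −1 for both ligands, Phka1 and Eno3 lie between the lines, and Gbe1 lies at about 1.5 in the third panel.

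Levels of different genes were compared per kilobase of exon, with length taken over all annotated exons, so shares depend on the annotation. The levels of Pgam1, Eno1 and Ldha that enter the shares are uncertain, as given above. On this scale the muscle isoform lost its lead in some families and kept it in others. Pgam2 held 90.8% and 92.2% of the summed phosphoglycerate mutase level in the DMSO libraries and between 10.9% and 17.9% in the treated ones, and Pgam1 was the higher of the pair in all 4 treated libraries. The family sum per kilobase was 654 (DMSO), 78.2 (ET-3) and 68.7 (NT). Glycogen phosphorylase showed the same turn, with Pygm at 84.1% and 82.8% with DMSO and at 11.0% to 12.9% in the treated libraries. Its family sum was 372 (DMSO), 83.5 (ET-3) and 86.1 (NT).

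Pfkm provided 60.3% and 60.9% of the phosphofructokinase level with DMSO and 27.4% to 30.1% in the treated libraries. There Pfkl became the highest isoform per kilobase, at 37.9% to 39.0%. This rank rests on length, since Pfkp, at 13401 exonic bases against 6675 for Pfkl, had higher values than Pfkl in every library. For cytosolic creatine kinase, Ckm held 43.8% and 39.2% with DMSO and at most 0.332% after treatment, leaving Ckb. Slc2a4 made up 20.5% and 14.7% of the sum with Slc2a1 in the DMSO libraries and 0.761% to 1.50% in the treated ones. Enolase differed from these families, since Eno3 held 77.3% to 80.1% of the enolase level in all 6 libraries. This share rests on 1739 exonic bases for Eno3 and 5379 for Eno1.

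The families with a muscle-rich member shifted in different directions. Pdk4 held 58.2% and 56.6% of the PDH kinase level with DMSO and 74.6% to 79.8% in the treated libraries, while its own values changed by less than 2-fold. Slc16a3, the lower of its pair in every library, took 25.5% and 22.7% of the sum with Slc16a1 with DMSO and 7.26% to 13.2% after treatment. Hk2 held 51.1% to 58.4% of the hexokinase level and Ldha 79.6% to 84.3% of the lactate dehydrogenase level in the 6 libraries. These shares are descriptions without a test, as 2 against 2 libraries cannot reach p = 0.05 in an exact permutation test.

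**Figure D3:**
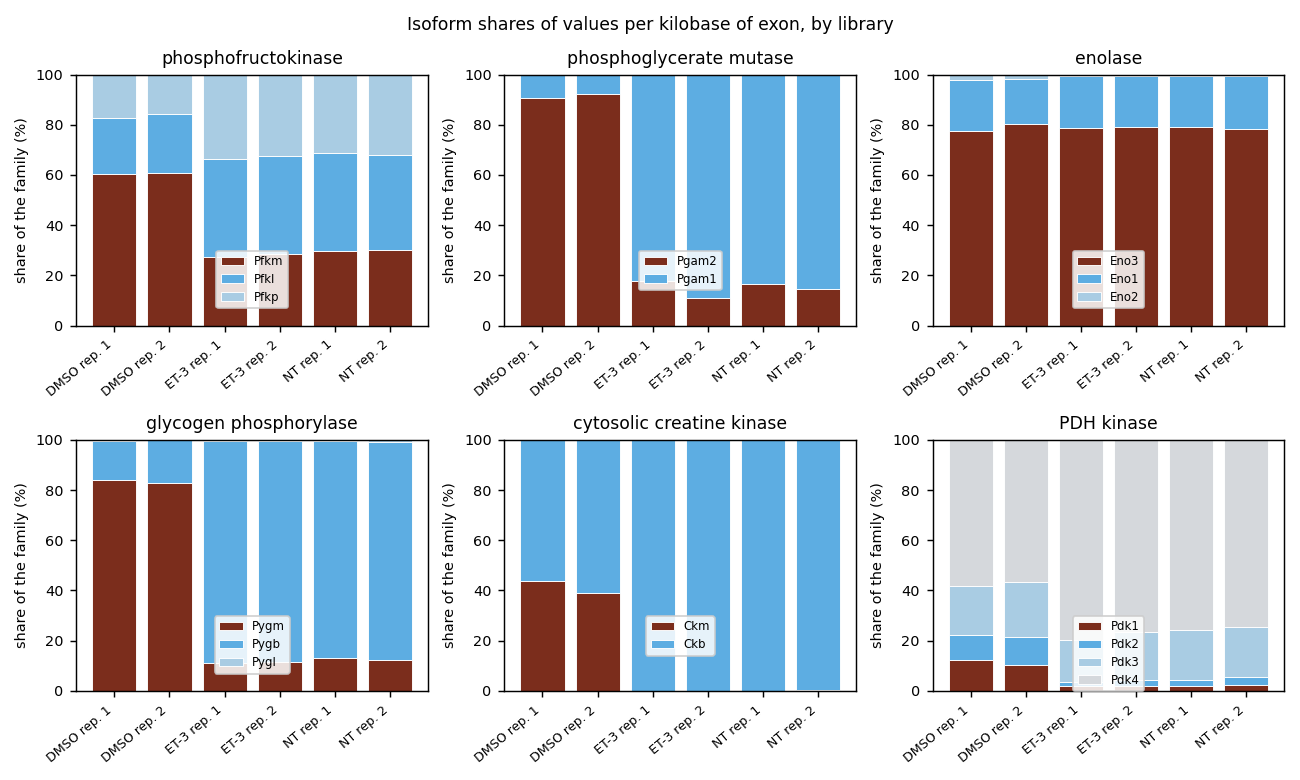
Share of each isoform (vertical, percent of the family's summed value per kilobase of exon) in the 6 libraries (horizontal) for 6 families, with the muscle isoform in dark red where the family has one and Pdk1 in dark red for the PDH kinases. Pgam2 drops from above 90% to below 18%, Pygm from above 82% to below 13%, and Eno3 stays between 77.3% and 80.1%.

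Read density was set beside the changes of the members. The highest density of a tested gene was 0.890 reads per exonic base, in Acta1, the median was 0.0585, and 7 member rows had over 0.3 reads per base in at least 1 group, Ak1, Aldoa, Eno3, Ldha, Pdk4, Pgam2 and Pkm. In that densest class of 526 tested genes, the median log2 fold change of NT against ET-3 was −0.19, against 0.13 in the sparsest class of up to 0.02 reads per base. With ET-3 against DMSO these medians were 0.12 in the densest and −0.24 in the sparsest class, and with NT against DMSO −0.13 and −0.16. The medians of the classes thus differed in another way in each comparison, and the part of density in the values of the members was not tested. The downregulated muscle isoforms lie at all densities, from 0.0195 reads per base with DMSO for Ckmt2 to 0.563 for Pgam2.

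**Figure D4:**
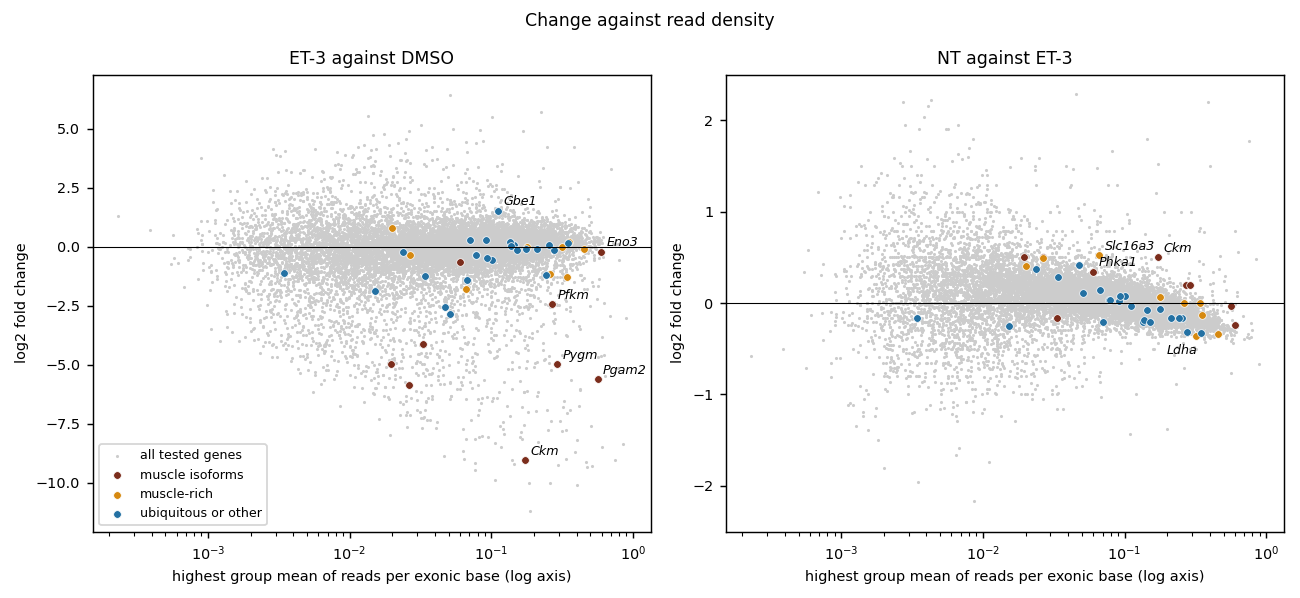
Log2 fold change (vertical) against the highest group mean of reads per exonic base (horizontal, log axis) for all tested genes in gray and the members in color by class, for ET-3 against DMSO on the left and NT against ET-3 on the right. Muscle isoforms with large decreases span the range of densities on the left, while on the right the cloud tilts below 0 at high density, where Aldoa, Ldha and Pkm lie.

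NT and ET-3 were then compared directly. Of the 42 tested members 0 were called in either direction by limma, against 0.0503% higher and 0.0287% lower of all tested genes, and 0 by limma with voom weights. At the adjusted p alone 6 passed with limma, 2 higher and 4 lower with NT, against 0.647% and 2.05% of all tested genes. With voom 9 passed, and 16 members had an unadjusted p under 0.05 with each tool, against 19.9% of all genes with limma. Slc16a3 and Phka1 were higher with NT, by 0.52 ± 0.11 (adjusted p = 0.042) and 0.34 ± 0.07 (adjusted p = 0.042) on the log2 scale. Aldoa, Ldha, Tpi1 and Pkm were lower with NT, with log2 fold changes between −0.36 and −0.32 (adjusted p from 0.038 to 0.042). All 4 are dense genes, with 0.276 to 0.454 reads per exonic base at their highest, and all 6 lost the adjusted p of 0.05 whichever library was left out, at 0.14 to 0.46.

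The wider pathways of energy supply were examined with lists of other genes, whose counts stand beside 14.9% (ET-3) and 13.2% (NT) of all tested genes that were downregulated and 6.62% and 7.30% that were upregulated. Of 17 other glycogen genes 11 were downregulated under both ligands and 0 upregulated by limma with or without voom weights (at an unadjusted p under 0.05, 1 was higher with ET-3 and 0 with NT), at median log2 fold changes of −1.31 and −1.32. The 4 with the largest changes encode targeting subunits that bring protein phosphatase 1 to glycogen. Ppp1r3a had values of 44 and 40 with DMSO and 0 in all 4 treated libraries, Ppp1r3c 28 and 36 with DMSO and at most 1 after treatment, Ppp1r3b 53 and 58 with DMSO and 2 to 5 after treatment, and Ppp1r3d 55 and 44 with DMSO and 1 to 9 after treatment. Ppp1r3a, Ppp1r3b and Ppp1r3c passed the filter on low values only through their DMSO values, as did Cd36, Esrrg and Car9 of the lists below, so the counts of these lists are descriptions. Phka2, Gyg (glycogenin), Ugp2, Stbd1, Epm2a and Nhlrc1 were also among the 11.

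Genes of creatine synthesis were downregulated as well. Of 13 other creatine and adenylate genes 3 fell under both ligands: Gatm and Gamt, which carry out the steps of creatine synthesis, and Adssl1, the muscle adenylosuccinate synthase. Gamt had values of 255 and 273 (DMSO), 17 and 20 (ET-3) and 23 and 20 (NT), Gatm 1070 and 1138, 311 and 295, and 312 and 318. Ampd3, an AMP deaminase found outside muscle, rose from 357 and 336 (DMSO) to 792 and 818 (ET-3) and 724 and 829 (NT), in contrast to Ampd1. The median of this list was 0.22 with ET-3 and 0.15 with NT, so the named genes were not typical of it.

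The pentose phosphate pathway, which branches from glycolysis to make NADPH and ribose, had calls in the upward direction only. Of 10 tested genes 3 were upregulated with ET-3 and 2 with NT, and 0 were downregulated by limma with or without voom weights (0 also at an unadjusted p under 0.05). At the adjusted p alone 9 were higher with ET-3 and 8 with NT, against 30.6% and 29.7% of all tested genes. Tkt, transketolase, had 263 and 226 (DMSO), 819 and 750 (ET-3) and 728 and 690 (NT) and rose under both ligands. G6pdx, the entry enzyme, had values of 436 and 471, 1045 and 988, and 924 and 866, and Pgd 669 and 674, 1458 and 1409, and 1237 and 1180. They rose with ET-3, and with NT their log2 fold changes were 0.98 and 0.85, below 2-fold. Prps2, which makes phosphoribosyl pyrophosphate, rose with NT (log2 fold change 1.05) and reached 0.98 with ET-3. The 8 proliferation markers, among them Mcm5, were also higher at the adjusted p in both comparisons, against the same 30.6% and 29.7% of all tested genes. These markers had summed values of 5740 to 6093 (DMSO), 9242 to 9304 (ET-3) and 8465 to 8922 (NT). Their part in the change of the pathway was not tested.

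Lists of mitochondrial genes differed in their counts. Of the 16 tested TCA cycle genes, 0 were called under either ligand by limma or by limma with voom weights. At an unadjusted p under 0.05, by each tool, 2 were higher and 5 lower with ET-3 and 1 was higher and 12 lower with NT. Their median log2 fold changes were −0.03 with ET-3 and −0.26 with NT. At the adjusted p alone 12 of the 16 were lower with NT, against 32.5% of all tested genes. Of 10 other PDH complex and pyruvate genes 1 fell, Pcx, pyruvate carboxylase, from 382 and 406 (DMSO) to 79 and 80 (ET-3) and 100 and 112 (NT). Of 11 fatty acid oxidation genes, whose median log2 fold changes were −0.45 and −0.63, 3 fell: Cd36, a fatty acid translocase, from 100 and 86 to at most 2, Fabp3, the heart and muscle fatty acid binding protein, from 68 and 69 to between 5 and 12, and Slc25a20, the carnitine carrier, from 283 and 297 to between 119 and 144. Of 8 other transport genes 2 fell, Txnip and Slc2a12, and of 12 genes in side branches of glycolysis 1 fell, Gpd1l, and 1 rose, Pgm2l1.

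Among 22 regulators of energy metabolism 5 fell and 1 rose under both ligands. Prkag3, the muscle gamma subunit of AMP-activated protein kinase, had values of 618 and 634 (DMSO), 12 and 10 (ET-3) and 11 and 12 (NT), and Prkaa2, its alpha-2 subunit, 366 and 375, 107 and 82, and 96 and 105. Esrrg and Ppargc1a, regulators of mitochondrial genes, and Epas1, which encodes HIF-2 alpha, also fell. Mlxipl, which encodes the glucose-responsive factor ChREBP, rose from 3 and 6 to between 15 and 17. Of 15 hypoxia targets 6 fell, Bnip3, Ankrd37, Ndrg1, Adm, P4ha1 and Car9, and 1 rose, Car12, a carbonic anhydrase, from 18 and 22 to between 76 and 91. Bnip3, a mitophagy receptor, had 273 and 237 (DMSO), 44 and 44 (ET-3) and 44 and 50 (NT). Some members are known hypoxia targets too. As examples, Pdk1 and Slc16a3 fell under both ligands and Pfkfb3 with ET-3, as given above, whereas Slc2a1, Pgk1 and Ldha did not reach 2-fold. The members were not sorted by their response to hypoxia, so these examples give no share.

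**Figure D5:**
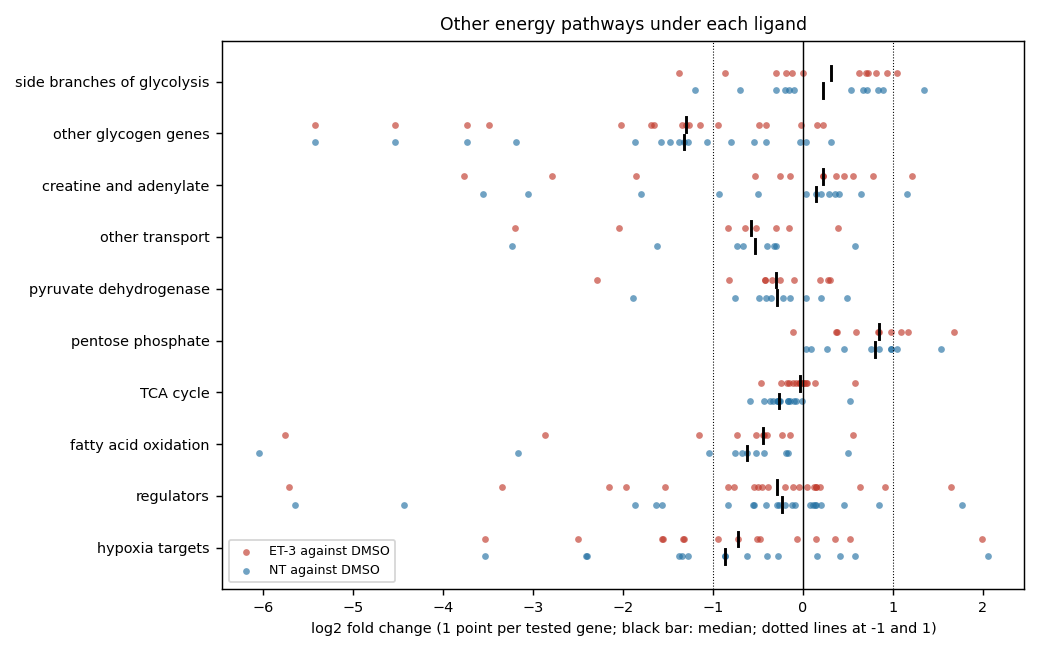
Log2 fold changes (horizontal) of the tested genes of 10 further lists (vertical), 1 point per gene, with ET-3 in red and NT in blue, the list median as a black bar and dotted lines at the 2-fold threshold. The other glycogen genes reach furthest left as a group, at medians of −1.31 and −1.32. The pentose phosphate genes lie mostly to the right of 0 at 0.84 and 0.80. The TCA cycle genes lie between the dotted lines, at medians of −0.03 with ET-3 and −0.26 with NT.

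Lists of markers of other cell types were read in the same libraries. Of the smooth muscle and pericyte list 3 of 4 tested markers fell, Rgs5, Pdgfrb and Notch3, with summed values of 2356 to 2815 (DMSO), 748 to 798 (ET-3) and 878 to 925 (NT), while Myh11 was at 4 or below and Kcnj8 at 2 or below in all libraries. Summed macrophage markers were 34 to 35 (DMSO), 21 to 45 (ET-3) and 27 to 28 (NT). Endothelial markers summed to 62 to 64 (DMSO), 118 to 122 (ET-3) and 98 to 128 (NT), where Tek had 2 and 1, 68 and 59, and 42 and 70 and rose with Kdr under both ligands, Pecam1 rose with NT, Vwf fell under both, and Cdh5 was at 5 or below. Fibroadipogenic markers summed to 127 to 130 (DMSO), 64 to 74 (ET-3) and 82 to 90 (NT), where Col15a1 fell from 80 and 82 to at most 1 and Pdgfra and Ly6a were not called. The Schwann cell list had sums of 160 to 182 with DMSO and 641 to 713 after treatment, carried by Ngfr, which is also expressed outside Schwann cells. Rgs5 and Col15a1 passed the filter on low values only through their DMSO values, so their calls are descriptions. The part of other cells in the energy gene values was not tested.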

How the data were processed

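RNA-seq of cultured MuSCs was examined in 6 libraries, 2 per group, grouped by their labels. The deposited table holds 1 whole number per gene and library, used as a read signal: counts that the authors multiplied by 1 factor per library (0.781 to 1.19 as fitted here) and rounded, so a count test was not run. According to the study's methods, single-end reads were trimmed, aligned to mm10 (GRCm38) with STAR and counted on exons with featureCounts, without reads that aligned to several regions or overlapped several genes. The submitters' processing notes name Trimmomatic 0.38, STAR 2.7.7a, featureCounts 1.6.5 and DESeq2 1.30.0, while the methods name another trimmer, and the library kit also differs between labels and methods. How the values were scaled, and whether duplicate reads were removed, is not given in the sources used here. The series text speaks of triplicates, and 2 libraries per group were used here.

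Values were tested as log2(value + 1) with limma 3.58.1 (lmFit, contrasts, eBayes with trend) in R 4.3.3, over all 13921 genes with a mean of at least 5 and over all 6 libraries, with Benjamini-Hochberg adjustment. Fold changes on this scale understate changes of low genes. The step was tested on simulated data. The replicate numbers did not pair the samples. Exonic lengths and positions came from the GENCODE mouse annotation on GRCm38, by Ensembl identifier, and promoters from RefSeq, where 41 of the 43 member symbols matched. Members and lists were chosen with earlier results of these data known. Every member with a row is named, and of each other list up to 4 DEGs with the largest mean change plus those that a count of 5 or fewer needs. Phka2, Gyg, Ugp2, Stbd1, Epm2a, Nhlrc1, Ndrg1, Adm and P4ha1 were named in addition, and 1 further gene of these lists is not reported here by name. Alternatives covered the low-value filter, pseudocount, scaling between libraries, voom weights, a replicate block, the fold threshold, a fit of 2 groups alone, averaged treated pairs and each library left out. Python 3.11.15 with pandas 2.3.3, scipy 1.17.1 and matplotlib 3.10.9 prepared tables and plots.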

Additional observations from a re-analysis of the deposited data

Results flagged for a closer look

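The change under ligand differed between NT and ET-3 at an adjusted p of at most 0.05 (limma, all tested genes) in 6 of 42 tested members, and in each the difference was below 2-fold. The log2 differences, NT minus ET-3, were 0.5236 for Slc16a3 and 0.3428 for Phka1, and −0.3597 for Ldha, −0.3422 for Aldoa, −0.3265 for Pkm and −0.3170 for Tpi1. Both libraries of one ligand lay on the same side of both libraries of the other in all 6 genes. The genes were picked by the test on these libraries, so this separation is no further support. Over the alternatives the adjusted p of these genes ranged from 0.0020 to 0.71.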

How the results depend on the processing

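Without a fold threshold, 7 members were higher with ET-3 and 28 lower with NT, and between NT and ET-3 2 were higher and 4 lower. When the libraries of a treated pair were averaged into 1 sample, 1 member was higher with NT, since Pfkfb1 was lost (adjusted p = 0.052). With 1 library left out, the number of lower members was 16 to 17 with ET-3 and 15 to 17 with NT, that of higher members 1 and 2, and that between the ligands 0. No called member reversed its direction under any alternative run. Aldoc alone lost its ET-3 call, under 9 of 16 alternatives, and its NT call under 5.

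The replicate numbers did not pair the libraries (correlations of deviations between −0.070 and −0.008), and with the replicate number as a block 16 members were lower with ET-3 and 16 with NT. Scaling to the library total moved the median of all genes to 0.08 with ET-3 and 0.10 with NT, from −0.01, so changes under 0.1 on the log2 scale have no settled direction. edgeR and DESeq2 were not run, since the values are not raw counts. Depth limits Aldoc, Pygl, Ckmt1, Ckmt2 and the second Aldoa row, where few reads were counted.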
